A study of Saccharomyces cerevisiae with 14 samples.

Results

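The genes described here are 45 budding yeast (Saccharomyces cerevisiae) genes of the environmental stress response and of reserve carbohydrate metabolism, chosen by name. All 45 were found among the 5449 genes that the arrays measured, each by 1 probe set, a group of short DNA probes for 1 transcript. They fall into 7 heat shock chaperones and heat shock membrane proteins, 4 oxidant defence enzymes, 4 trehalose enzymes, 7 glycogen enzymes, 4 enzymes of glucose phosphorylation and of the pentose phosphate pathway, 2 aldo-keto reductases with the glutamate decarboxylase GAD1, 6 cell surface and membrane proteins, and 10 other stress genes. RNA came from 14 cultures in 7 groups of 2, each hybridised to an Affymetrix yeast array, after growth to log phase in YPD, a rich medium with glucose. Every strain was MATa his3D200 leu2D1 met15D0 trp1D63 ura3-167. The mutant groups carried in addition npt1D::kanMX4, pnc1D::kanMX4, bna1D::kanMX4 or tna1D::kanMX4, and are written npt1Δ, pnc1Δ, bna1Δ and tna1Δ. The other groups were wild type with 5 mM nicotinamide (NAM) in the medium and the untreated wild-type pairs coded ML1 and ML8. The arrays of a pair are lettered A and B, and the labels do not say whether the duplicate cultures of a mutant came from separate clones.

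The environmental stress response is a common programme in which yeast cells meeting heat, oxidants, osmotic shock or starvation raise a large set of transcripts and lower those for ribosome production. Many of the raised genes are driven by the zinc finger factors Msn2 and Msn4 through stress response elements, while Hsf1 drives heat shock chaperones, and protein kinase A keeps Msn2 and Msn4 out of the nucleus when glucose is plentiful. Trehalose and glycogen, both made from glucose phosphates, are the reserve carbohydrates that cells store under stress and as glucose runs out. PNC1, which encodes the nicotinamidase that turns nicotinamide into nicotinic acid, is itself a stress-induced gene. NPT1 encodes the next enzyme of that salvage route to NAD+, BNA1 an enzyme of NAD+ synthesis from tryptophan, and TNA1 the nicotinic acid permease. The series is described as conditions that inhibit sirtuins, the NAD+-dependent deacetylases.

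Signals are deposited log2 values, so a difference of 1 is a doubling, and they do not rank genes against each other because each probe set has its own response. Median signal was 9.75 to 9.84 per array, and 44 of the 45 genes exceeded the background limit of 2.22 to 2.26 on all 14 arrays. The reticulon gene RTN2 did not on at least 1 array. Each deleted gene gave low signal in its own strain, with NPT1 at 2.18 and 2.19 in npt1Δ, PNC1 at 2.17 and 2.18 in pnc1Δ, BNA1 at 1.98 and 1.89 in bna1Δ and TNA1 at 2.09 and 2.28 in tna1Δ. On the 4 untreated wild-type arrays the 7 a-cell markers lay between 10.14 and 14.66. Of the α-cell markers, MF(ALPHA)1, the α-factor gene, lay below the limit. The other α-cell markers lay above it, STE3 at 2.46 to 3.35, MF(ALPHA)2 at 3.64 to 3.79 and SAG1 at 8.94 to 9.22. Array ML1 A had the lowest of the 4 wild-type signals for 22 of the 45 stress genes and for 35.5% of all probe sets. Array ML1 B had the highest for 23 of the 45, and the share of all probe sets for that is not given here. RNA of a whole culture was measured, so fewer cells expressing a gene and less RNA per cell cannot be told apart. The p-values set each difference against the spread of these few cultures within groups, with the 4 wild-type arrays as 1 group. That spread is pooled over all groups.

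**Figure D1:**
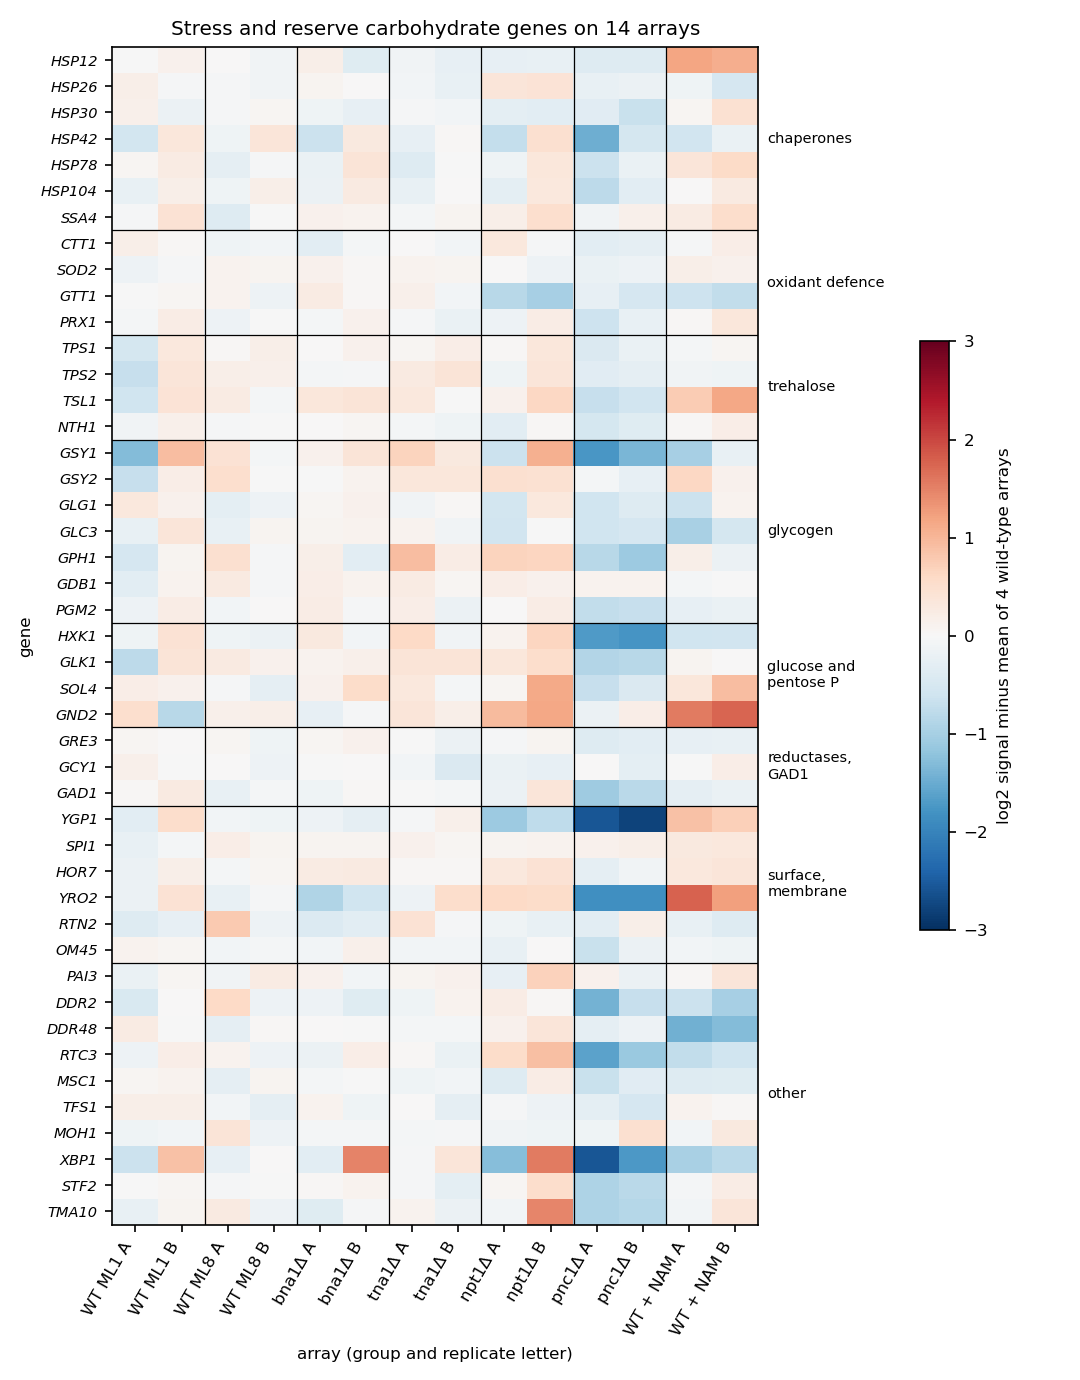
Log2 signal of the 45 genes (rows, grouped by role) on the 14 arrays (columns) minus the mean of the 4 wild-type arrays, with colour from -3 to 3. The pnc1Δ columns are below the wild-type mean for most genes, while the NAM columns hold both higher and lower genes.

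The pnc1Δ comparison asked how loss of the nicotinamidase affected these genes in cells growing in rich medium. Of the 45 genes, 8 fell and 0 rose in pnc1Δ against the 4 wild-type arrays, or 17.8% and 0%, where 1.42% of all 5498 probe sets were called lower and 0.818% higher. A call is an adjusted p under 0.05 (limma, Benjamini-Hochberg over all probe sets). The 8 were the secreted glycoprotein gene YGP1, the membrane protein gene YRO2, the hexokinase gene HXK1, RTC3, GAD1, STF2, the phosphoglucomutase gene PGM2 and the aldose reductase gene GRE3. The median difference over the 45 genes was -0.43, against -0.01 over all probe sets, and 40 of the 45 values were below 0. For 28 of the 45 both pnc1Δ arrays lay below all 4 wild-type arrays, which held for 13.4% of all probe sets, and for 0 both lay above them, against 9.79%. For 20 of them (44.4%) both pnc1Δ arrays were also below the other 12 arrays of the series, which held for 4.53% of all probe sets.

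Among the cell surface and membrane genes, YGP1 had signals of 9.85 and 9.65 in pnc1Δ and of 12.12, 12.94, 12.35 and 12.29 on the wild-type arrays ML1 A, ML1 B, ML8 A and ML8 B, the order used throughout. Both mutant arrays were more than 2 log2 units below every wild-type array. The difference was -2.67 ± 0.20 (SE; 2 arrays against 4, as in every comparison with wild type), or 6.38-fold lower, with an adjusted p of 0.000120. YGP1 encodes a secreted glycoprotein made when nutrients become limiting. YRO2, which encodes a plasma membrane protein related to Hsp30, was at 4.47 and 4.47 against 6.15, 6.75, 6.10 and 6.28. Its groups did not overlap, and it fell 3.59-fold (-1.85 ± 0.23, adjusted p = 0.00331). The remaining 4 genes of this role were not called: OM45, for a protein of the mitochondrial outer membrane, differed by -0.43 ± 0.13, HOR7 by -0.18 ± 0.09, RTN2 by -0.07 ± 0.29 and the cell wall gene SPI1 by 0.15 ± 0.10.

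The enzymes that phosphorylate glucose or channel it into the pentose phosphate pathway held 1 call, HXK1. Its signals were 7.48 and 7.41 in pnc1Δ and 9.05, 9.62, 9.04 and 8.99 in wild type, without overlap. HXK1 encodes the hexokinase isoenzyme that glucose represses, and it fell 3.32-fold (-1.73 ± 0.24, adjusted p = 0.00493). The glucokinase gene GLK1 was at 12.52 and 12.56 against 12.61, 13.79, 13.67 and 13.53, so that 3 wild-type arrays stood well above the mutant while ML1 A lay just above it. GLK1 differed by -0.86 ± 0.26 and was not called (adjusted p = 0.137). SOL4, for a 6-phosphogluconolactonase, differed by -0.56 ± 0.29, and GND2, for the minor 6-phosphogluconate dehydrogenase, by 0.01 ± 0.29.

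Of the 7 glycogen genes, 1 fell, and the median was -0.54. PGM2, for the main phosphoglucomutase, had signals of 8.15 and 8.20 against 8.74, 9.12, 8.80 and 8.89 and fell 1.64-fold (-0.71 ± 0.13, adjusted p = 0.0237). The glycogen synthase gene GSY1 gave the largest difference of this role, -1.55 ± 0.59, with 6.16 and 6.52 in pnc1Δ against 6.60, 8.83, 8.32 and 7.84. Both mutant arrays were below wild type, but array ML1 A lay well below the other wild-type arrays, and GSY1 was not called (adjusted p = 0.238). GPH1, for glycogen phosphorylase, differed by -0.96 ± 0.27, GLC3, for the branching enzyme, by -0.54 ± 0.20, and GLG1, for a glycogenin, by -0.50 ± 0.26. All 3 lay below the wild-type range without a call. The second glycogen synthase gene GSY2 differed by -0.15 ± 0.27 and the debranching enzyme gene GDB1 by 0.11 ± 0.13, and both overlapped with wild type.

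None of the 4 trehalose genes was called in pnc1Δ, and their median was -0.38. TSL1, for a regulatory subunit of the trehalose synthase complex, had the largest difference, with 9.14 and 9.25 against 9.24, 10.24, 10.07 and 9.78 (-0.64 ± 0.25, adjusted p = 0.271). Array ML1 A lay among the mutant values while the other wild-type arrays were higher. NTH1, for neutral trehalase, was below the wild-type range at -0.45 ± 0.11 (adjusted p = 0.0595). The synthase gene TPS1 differed by -0.31 ± 0.20 and the phosphatase gene TPS2 by -0.30 ± 0.25.

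Both the 7 heat shock genes and the 4 oxidant defence genes gave 0 calls in pnc1Δ, with medians of -0.42 and -0.33. HSP42, for a small heat shock protein, was at 6.91 and 7.85 against 7.83, 8.72, 8.25 and 8.74, and its groups overlapped by a small margin (-1.01 ± 0.42, adjusted p = 0.284). HSP104, for the disaggregase, was at 9.96 and 10.42 against 10.52, 10.93, 10.62 and 10.91. These did not overlap, but the difference of -0.55 ± 0.21 was not called (adjusted p = 0.244). HSP12, for a membrane-associated small heat shock protein, differed by -0.38 ± 0.13 and the Hsp70 gene SSA4 by 0.02 ± 0.19. HSP30, for a stress-induced membrane protein, was at -0.50 ± 0.13, HSP78 at -0.42 ± 0.22 and HSP26 at -0.20 ± 0.10. In oxidant defence the mitochondrial peroxiredoxin gene PRX1 was at 8.08 and 8.47 against 8.62, 8.92, 8.54 and 8.68 (-0.42 ± 0.16, adjusted p = 0.232), below wild type without a call. The glutathione transferase gene GTT1 differed by -0.37 ± 0.11, the catalase T gene CTT1 by -0.29 ± 0.12 and the mitochondrial superoxide dismutase gene SOD2 by -0.18 ± 0.08.

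GAD1, for glutamate decarboxylase, fell from 7.76, 8.0, 7.51 and 7.67 in wild type to 6.67 and 6.93 in pnc1Δ, without overlap (-0.93 ± 0.16, 1.91-fold lower, adjusted p = 0.0154). GRE3, for the main aldose reductase, changed by less, from 10.56, 10.50, 10.54 and 10.37 to 10.10 and 10.17 (-0.36 ± 0.07, adjusted p = 0.0334), and kept its call in 12 of 22 alternative analyses. The related GCY1 differed by -0.13 ± 0.12. Among the other stress genes RTC3 was at 5.80 and 6.29 in pnc1Δ against 7.26, 7.61, 7.51 and 7.26. Every mutant value was below every wild-type value, and RTC3 fell 2.58-fold (-1.37 ± 0.17, adjusted p = 0.00336). STF2, which encodes a small protein of the mitochondrial ATP synthase inhibitor complex, was at 8.86 and 8.98 against 9.78, 9.86, 9.76 and 9.77 and fell 1.83-fold (-0.88 ± 0.13, adjusted p = 0.00619).

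XBP1 and DDR2 had differences larger than 1 without a call. XBP1, for a stress-induced transcriptional repressor, was at 2.28 and 3.13 in pnc1Δ, the first of these just above that array's background limit of 2.23, and at 4.20, 5.73, 4.61 and 4.87 in wild type. The pnc1Δ arrays lay below all wild-type arrays, but the duplicates of several groups were far apart, and the difference of -2.14 ± 0.74 had an adjusted p of 0.195. DDR2, a gene induced by DNA damage and many other stresses, was at 5.25 and 5.96 against 6.20, 6.68, 7.26 and 6.52 (-1.06 ± 0.27, adjusted p = 0.0822). TMA10, for a ribosome-associated protein, lay below wild type at -0.89 ± 0.34 and TFS1, for a carboxypeptidase Y inhibitor, at -0.40 ± 0.14. MSC1 lay below it too, at -0.50 ± 0.16, while DDR48, at -0.22 ± 0.13, and the proteinase A inhibitor gene PAI3, at -0.03 ± 0.23, overlapped with it. MOH1, at 0.17 ± 0.19, had the highest value of the 45 genes and was not called. Without pnc1Δ array A 1 gene, YGP1, was called, without pnc1Δ array B 5 were, and without wild-type array ML1 A 12 were, with DDR2, GLK1, GPH1 and TSL1 added. All 8 kept their direction in each alternative analysis.

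**Figure D2:**
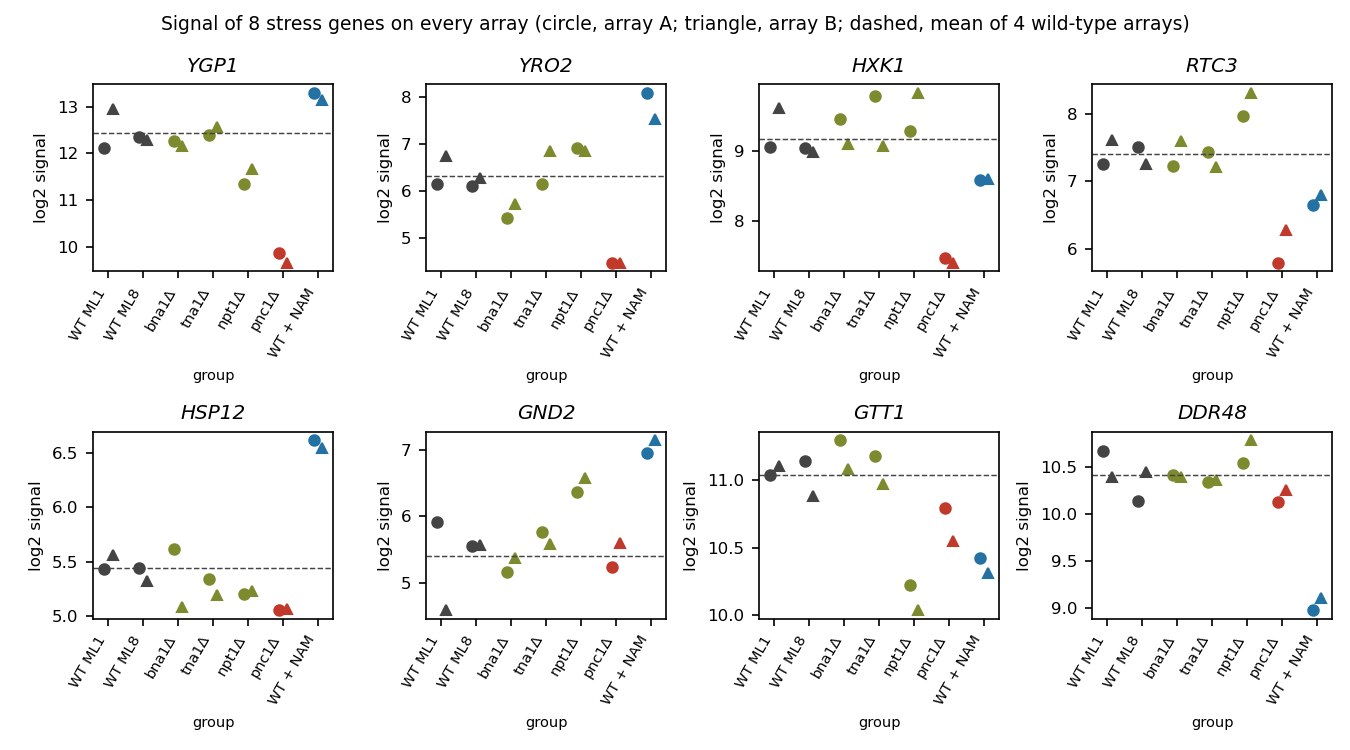
Log2 signal (vertical axis) of 8 genes on every array, by group, with circles for array A, triangles for array B and a dashed line at the mean of the 4 wild-type arrays (wild type in grey, pnc1Δ in red, NAM in blue, the other mutants in green). YGP1, YRO2, HXK1 and RTC3 are lowest in pnc1Δ, HSP12 is highest with NAM, DDR48 is lowest with NAM and GTT1 is lowest in npt1Δ and with NAM.

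Wild type with 5 mM nicotinamide, which inhibits sirtuins as a product of their reaction, was compared with untreated wild type. Of the 45 genes 6 rose (GND2, YRO2, HSP12, TSL1, YGP1 and HOR7) and 5 fell (DDR48, GLC3, RTC3, GTT1 and GRE3). Over all probe sets 8.88% were called higher and 7.02% lower, not far from 13.3% and 11.1% of the 45. Their median difference was 0.07, against -0.01 over all probe sets. Both NAM arrays lay above all 4 wild-type arrays for 10 genes and below them for 12, where 16.4% and 16.7% of all probe sets did so. Quantile normalization of the deposited values gave 7 higher and 9 lower, and the share of all probe sets called after it is not given here.

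GND2 rose most. It had signals of 6.96 and 7.15 with NAM against 5.92, 4.59, 5.56 and 5.57, with ML1 B the lowest, and the NAM arrays lay above all of wild type. GND2 rose 3.12-fold (1.64 ± 0.29, adjusted p = 0.00313). SOL4, whose enzyme acts just before that of GND2, lay above wild type at 0.64 ± 0.29 without a call (adjusted p = 0.187). HXK1 lay below the wild-type range, at 8.58 and 8.61, and was not called (-0.58 ± 0.24, adjusted p = 0.139), and GLK1 differed by 0.05 ± 0.26.

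Of the cell surface and membrane genes 3 rose with NAM. YRO2 was at 8.09 and 7.54 against 6.15, 6.75, 6.10 and 6.28 and rose 2.82-fold (1.5 ± 0.23, adjusted p = 0.00128), without overlap. YGP1 was at 13.29 and 13.14, above the highest wild-type signal of 12.94 on ML1 B, and rose 1.73-fold (adjusted p = 0.0210). HOR7, a gene induced by hyperosmotic stress, rose by 0.34 ± 0.09 (adjusted p = 0.0317). SPI1 lay above wild type at 0.31 ± 0.10 without a call (adjusted p = 0.0604).

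HSP12 was the heat shock gene that rose, from 5.43, 5.56, 5.44 and 5.32 to 6.61 and 6.54, a 2.20-fold change (adjusted p = 0.000100). The NAM arrays were about 1 log2 unit above the highest wild-type array. The other 6 heat shock genes were not called: HSP78, for the mitochondrial disaggregase, lay above wild type at 0.47 ± 0.22, while HSP26, for a small heat shock protein, lay below it at -0.32 ± 0.10 (adjusted p = 0.0649). In the trehalose list TSL1 rose, with 10.58 and 10.99 against 9.24, 10.24, 10.07 and 9.78 (1.94-fold, adjusted p = 0.0295). The genes for the enzymes of that complex were not called, with TPS1 at 0.00 ± 0.20 and TPS2 at -0.12 ± 0.25, nor was the trehalase gene NTH1 at 0.11 ± 0.11.

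DDR48, a gene induced by DNA damage and heat, was at 8.98 and 9.10 with NAM against 10.67, 10.39, 10.14 and 10.45. Its NAM signals were more than 1 log2 unit below every wild-type array, a 2.59-fold fall (adjusted p = 2.63e-05). GTT1, for a membrane-bound glutathione transferase, fell from 11.04, 11.10, 11.14 and 10.89 to 10.42 and 10.31 (-0.68 ± 0.11, 1.60-fold, adjusted p = 0.00154). CTT1 at 0.08 ± 0.12, SOD2 at 0.15 ± 0.08 and PRX1 at 0.19 ± 0.16 were not called. RTC3 fell to 6.66 and 6.80 (-0.68 ± 0.17, adjusted p = 0.0248).

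GLC3 was the called glycogen gene, at 7.81 and 8.25 against 8.57, 9.13, 8.57 and 8.85, without overlap (-0.75 ± 0.20, 1.68-fold lower, adjusted p = 0.0290). The 2 synthase genes had opposite signs, GSY1 at -0.61 ± 0.59 and GSY2 at 0.38 ± 0.27, and neither was called. GRE3 was at 10.24 and 10.26 against 10.56, 10.50, 10.54 and 10.37, and its small fall (-0.24 ± 0.07, adjusted p = 0.0488) was lost in 16 of 22 alternative analyses. XBP1 (-0.89 ± 0.74, adjusted p = 0.510) and DDR2 (-0.82 ± 0.27, adjusted p = 0.0704) lay below wild type without a call.

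The NAM cultures also differed in mating-type markers, as all 7 a-cell markers and all 9 haploid markers fell. The summed a-cell markers were at 16.31 to 16.41 in wild type and 10.50 to 13.07 with NAM, and the haploid markers at 14.15 to 14.28 and 10.45 to 11.66. Of the 4 α-cell markers 1, the a-factor receptor gene STE3, rose (5.06 ± 0.21), as it did in npt1Δ, and their sum was 9.01 to 9.28 in wild type and 9.65 to 9.91 with NAM. MF(ALPHA)1, the α-factor gene, had signals of 2.29 and 2.09 with NAM, near those arrays' background limits of 2.23 and 2.24. The part of these markers in the stress gene result was not tested. Without NAM array A the calls of GLC3, GRE3, HOR7, RTC3, TSL1 and YGP1 among the 45 genes were lost. Without NAM array B the same calls were lost except that of GLC3. The calls of DDR48, GND2, GTT1, HSP12 and YRO2 held in all 22 alternative analyses, while leaving out wild-type array ML1 B ended those of GLC3, GRE3 and RTC3, ML8 B those of GLC3 and TSL1, and ML8 A those of GRE3 and HOR7.

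In npt1Δ, which lacks nicotinate phosphoribosyltransferase, 1 of the 45 genes rose (RTC3) and 2 fell (GTT1 and YGP1). These are 2.22% and 4.44% of the 45, where 3.56% of all probe sets were called higher and 0.637% lower. The median difference was 0.12, against -0.03 over all probe sets. Both npt1Δ arrays lay above all 4 wild-type arrays for 6 genes and below for 5, where 9.42% and 13.3% of all probe sets did so. Quantile normalization gave 2 higher and 3 lower, and centring each array on its median gave 3 and 2. The shares of all probe sets called after these steps are not given here.

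GTT1 was at 10.22 and 10.04 in npt1Δ against 11.04, 11.10, 11.14 and 10.89, below every wild-type array. It fell 1.88-fold (adjusted p = 0.000443), a call that held in all 22 alternative analyses. The other 3 oxidant defence genes were not called, with CTT1 at 0.14 ± 0.12, PRX1 at 0.03 ± 0.16 and SOD2 at -0.07 ± 0.08. YGP1 was at 11.34 and 11.66, below the lowest wild-type array (12.12, ML1 A), and fell 1.91-fold (adjusted p = 0.0232). RTC3 was at 7.96 and 8.31 against 7.26, 7.61, 7.51 and 7.26, and its rise of 0.73 ± 0.17 (adjusted p = 0.0476) was lost in 15 of 22 alternative analyses.

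GND2 was the 1 gene with a difference above 1 and no call. It was at 6.36 and 6.57 in npt1Δ, above the wild-type range of 4.59 to 5.92 (1.06 ± 0.29, adjusted p = 0.0897). YRO2 lay above wild type at 0.57 ± 0.23 (adjusted p = 0.276), GPH1 at 0.66 ± 0.27 (adjusted p = 0.282) and HOR7 at 0.37 ± 0.09 (adjusted p = 0.0574). HSP26, at 8.28 and 8.34 against 8.09, 7.89, 7.89 and 7.81, also lay above (0.39 ± 0.10, adjusted p = 0.0735). HSP30 (-0.30 ± 0.13, adjusted p = 0.314) and HSP12 (-0.23 ± 0.13, adjusted p = 0.422) lay below wild type, and the median of the 7 heat shock genes was 0.02. No trehalose or glycogen gene was called: TSL1, at 9.95 and 10.46, differed by 0.38 ± 0.25, GSY2 by 0.47 ± 0.27 and GLC3 by -0.29 ± 0.20. Of the reductases GCY1 differed by -0.23 ± 0.12 and GRE3 by 0.02 ± 0.07.

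The npt1Δ duplicates differed by more than 1 in 5 of the 45 genes, XBP1 (2.85), GSY1 (1.70), TMA10 (1.53), HSP42 (1.21) and SOL4 (1.09), each higher on array B. STE3 rose in npt1Δ as well, from 2.46, 2.78, 3.35 and 2.52 to 7.66 and 7.58 (4.85 ± 0.21, adjusted p = 1.09e-07), and the summed α-cell markers were at 9.67 to 9.69 against 9.01 to 9.28 in wild type. None of the 7 a-cell and 9 haploid markers was called in npt1Δ, and the part of these markers in the stress gene result was not tested. The calls of YGP1 and RTC3 were lost without npt1Δ array A and also without npt1Δ array B, while that of GTT1 held. Without wild-type array ML1 A 4 of the 45 genes were called, with GND2 and HSP26 added and RTC3 lost. Without ML1 B 5 were called, with GND2 and HOR7 added.

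**Figure D3:**
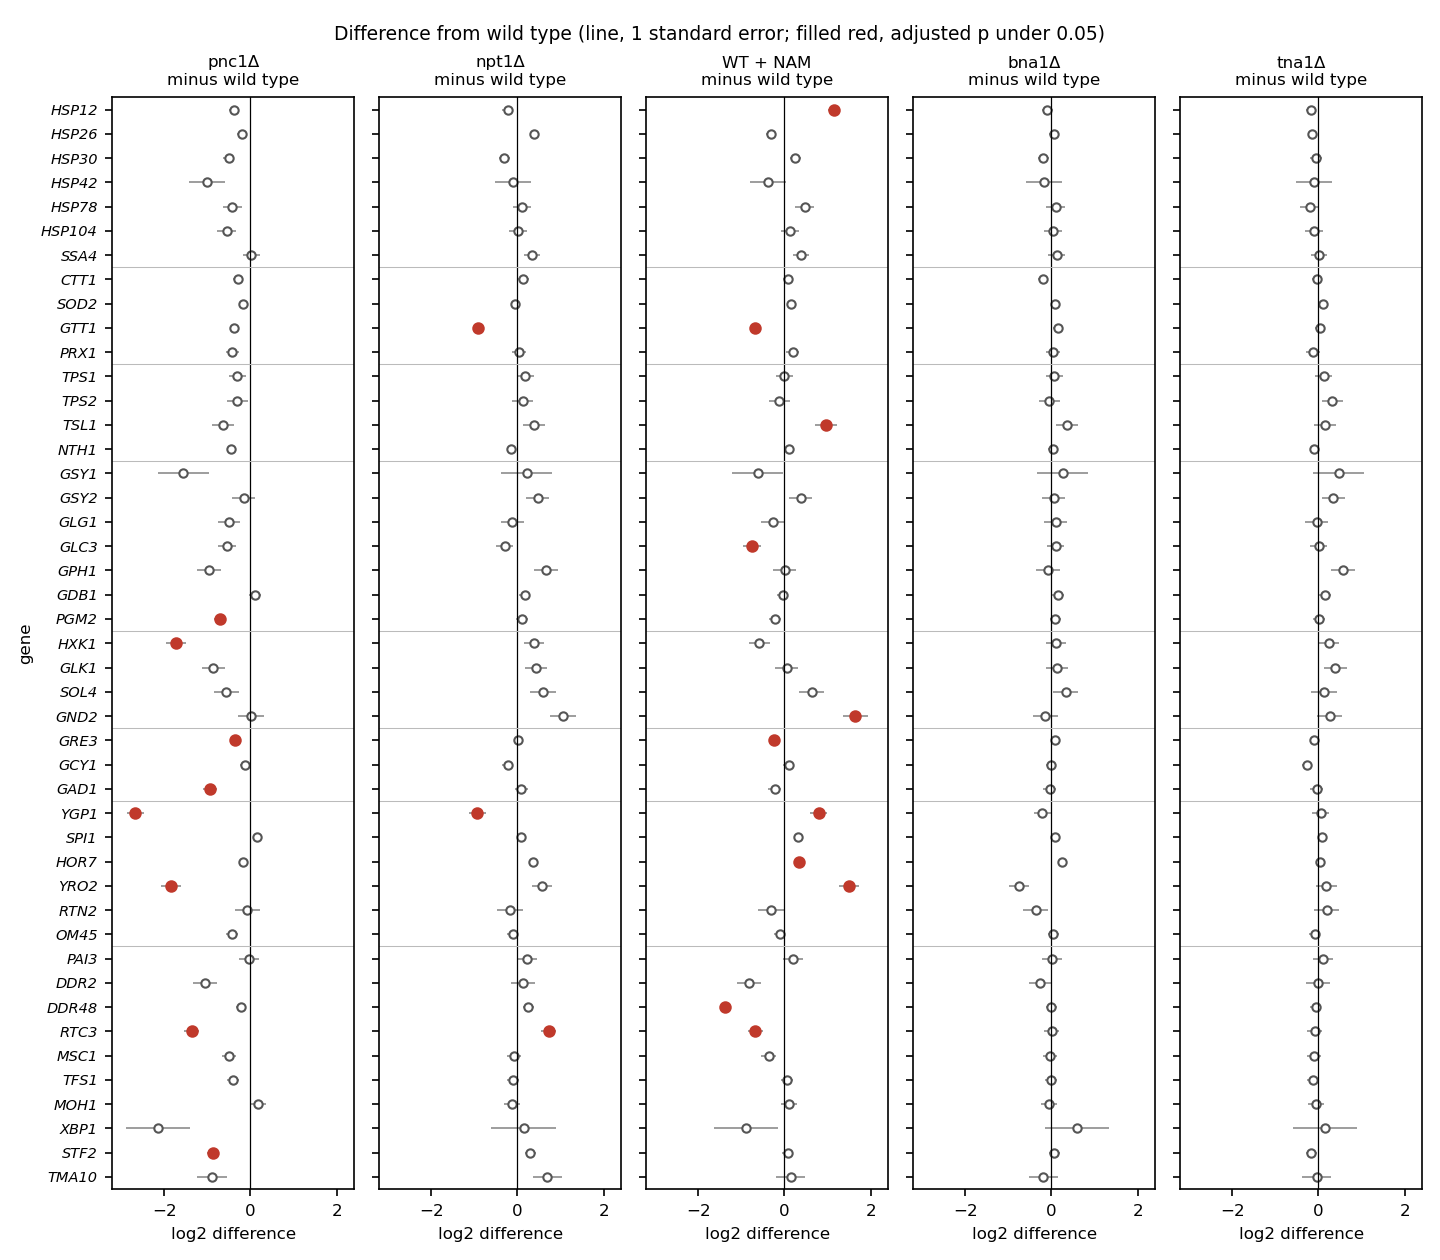
Log2 difference of each of the 45 genes from wild type in the 5 conditions, with lines of 1 standard error. Filled red points are called by limma (adjusted p under 0.05), 8 in pnc1Δ, 3 in npt1Δ, 11 with NAM and 0 in bna1Δ and tna1Δ.

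The conditions were also tested against each other, since a call in one comparison and not in another does not show a difference between them. The 3 tests below share arrays with one another. NAM against pnc1Δ gave 16 genes higher and 1 lower (9.37% and 6.07% of all probe sets). YGP1 was 11.1-fold higher with NAM than in pnc1Δ (3.47 ± 0.23, adjusted p = 2.29e-06), and YRO2 10.1-fold higher (3.34 ± 0.27, adjusted p = 1.14e-05). Against the wild-type arrays that both comparisons share, YGP1 differed by 0.79 with NAM and -2.67 in pnc1Δ, and YRO2 by 1.5 and -1.85. HSP12 was higher by 1.52 ± 0.14 and TSL1 by 1.59 ± 0.29, GND2 by 1.64 ± 0.34, SOL4 by 1.20 ± 0.33 and HXK1 by 1.15 ± 0.27. SOL4 was at 2.57 and 2.84 in pnc1Δ, near the background limit of 2.23. Its call was lost without either pnc1Δ array, NAM array B or wild-type array ML1 B. That of HXK1 was lost whichever NAM or pnc1Δ array was left out, and that of GND2 without pnc1Δ array A or NAM array B. The calls of YGP1, YRO2, HSP12 and TSL1 held each time. The others called higher were STF2, HSP78, HSP30, GAD1, RTC3, PRX1, NTH1, HOR7 and SOD2, at 0.33 to 0.95. DDR48 was lower with NAM (a difference of -1.15 ± 0.14, adjusted p = 0.000292). Without pnc1Δ array A 7 genes were called, without NAM array A 11 and without NAM array B 6.

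npt1Δ against pnc1Δ gave 13 genes higher and 1 lower (4.77% and 1.26% of all probe sets). YRO2 was 5.34-fold higher in npt1Δ (2.42 ± 0.27, adjusted p = 0.000284), HXK1 4.32-fold (2.11 ± 0.27, adjusted p = 0.000875) and RTC3 4.26-fold (2.09 ± 0.20, adjusted p = 8.89e-05). YGP1, below the shared wild-type arrays in both mutants, was 3.35-fold higher in npt1Δ than in pnc1Δ (1.74 ± 0.23, adjusted p = 0.000914). The glycogen phosphorylase gene GPH1 (1.62 ± 0.31), TMA10 (1.59 ± 0.39), GLK1 (1.29 ± 0.30), STF2 (1.17 ± 0.15) and GAD1 (1.03 ± 0.18) were higher by more than 1. PGM2, HSP26, HOR7 and GRE3 made up the rest. The calls of GPH1, GLK1 and HSP26 were lost whichever npt1Δ or pnc1Δ array was left out. That of GAD1 was lost without npt1Δ array B and without pnc1Δ array A. Those of YRO2, HXK1, RTC3, YGP1 and STF2 held each time. TMA10 was at 4.89 and 6.43 in npt1Δ, and without npt1Δ array B its difference was 0.82. The call of TMA10 was lost without npt1Δ array B and without either pnc1Δ array, and held without npt1Δ array A. It was also lost without either bna1Δ array, tna1Δ array A or wild-type array ML1 B. GTT1 was lower in npt1Δ (-0.54 ± 0.13, adjusted p = 0.0309). Without npt1Δ array B or pnc1Δ array A 5 genes were called, and without pnc1Δ array B 8.

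NAM against npt1Δ gave 2 genes higher and 3 lower (5.29% and 3.75% of all probe sets). YGP1 was higher with NAM by 1.72 ± 0.23 (adjusted p = 0.000791) and HSP12 by 1.36 ± 0.14 (adjusted p = 0.000186). The lower genes were DDR48 at -1.62 ± 0.14, RTC3 at -1.40 ± 0.20 and HSP26 at -0.71 ± 0.12, with adjusted p of 5.42e-05, 0.00133 and 0.00402. Against the shared wild-type arrays RTC3 differed by -0.68 with NAM and 0.73 in npt1Δ. GTT1 differed between them by 0.24 (95% interval -0.04 to 0.52) and GND2 by 0.59 (95% interval -0.17 to 1.34), neither of them called. Without wild-type array ML1 A, which enters here through the shared estimate of spread, 8 genes were called.

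In bna1Δ and in tna1Δ 0 of the 45 genes were called, where 0.0182% of all probe sets were called in each, the deleted gene itself. At an unadjusted p under 0.05 there were 2 in bna1Δ (HOR7 and YRO2) and 0 in tna1Δ. The medians were 0.04 and 0.00. YRO2 gave the largest difference in bna1Δ, with 5.42 and 5.72 against 6.15, 6.75, 6.10 and 6.28, both below wild type (-0.75 ± 0.23, 95% interval -1.27 to -0.23, adjusted p = 0.9998). In tna1Δ the values ran from -0.26 (GCY1) to 0.57 (GPH1), whose 95% interval was -0.03 to 1.18. The 95% interval of the difference lay within 1 log2 unit of 0 for 40 genes in bna1Δ and 41 in tna1Δ, so a doubling or halving lay outside it for these. For YGP1 the intervals were -0.65 to 0.23 in bna1Δ and -0.38 to 0.49 in tna1Δ, and for HXK1 -0.42 to 0.63 and -0.28 to 0.78. The widest interval was that of XBP1, at -1.07 to 2.24 in bna1Δ.

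Between bna1Δ and tna1Δ 0 of the 45 genes were called (0.0364% of all probe sets), with 2 at an unadjusted p under 0.05, YRO2 (-0.94 ± 0.27) and GRE3 (0.19 ± 0.08). The untreated wild-type pairs ML1 and ML8 differed in 0 of the 45 genes (0.0728% of all probe sets), with 3 at an unadjusted p under 0.05, SOD2, SPI1 and TFS1. Without array ML1 B the ML1 side was array ML1 A alone, which had the lowest wild-type signal for 22 of the 45 genes. In that fit GDB1, GLK1, GSY2, SPI1, TPS1 and TPS2 were called, and the share of all probe sets called in it is not given here.

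Signals differed between the duplicate arrays of a group more for some genes than for others. Array B was above array A in all 7 groups for 7 of the 45 genes (15.6%), against 6.35% of all probe sets, and A above B in all 7 for 0, against 6.51%. The 7 were HSP42, HSP78, HSP104, TPS1, HOR7, MSC1 and XBP1. B exceeded A by 0.30 to 1.21 for HSP42, by 0.25 to 0.60 for HSP104 and by 0.19 to 0.57 for HSP78. Of the other heat shock genes, B was above A in 6 of 7 groups for SSA4, 3 for HSP12, 2 for HSP26 and 2 for HSP30. For XBP1 the gap ran from 0.17 with NAM to 2.85 in npt1Δ, with 1.79 in bna1Δ and 1.53 in ML1. The glycogen synthase gene GSY1 had gaps of 2.23 in ML1 and 1.70 in npt1Δ but of -0.48 in ML8 and -0.38 in tna1Δ. Members differing by more than 1 between duplicates numbered 5 in ML1, 5 in npt1Δ, 1 in bna1Δ and 0 in the other 4 groups. The labels do not say what the letters stand for.

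**Figure D4:**
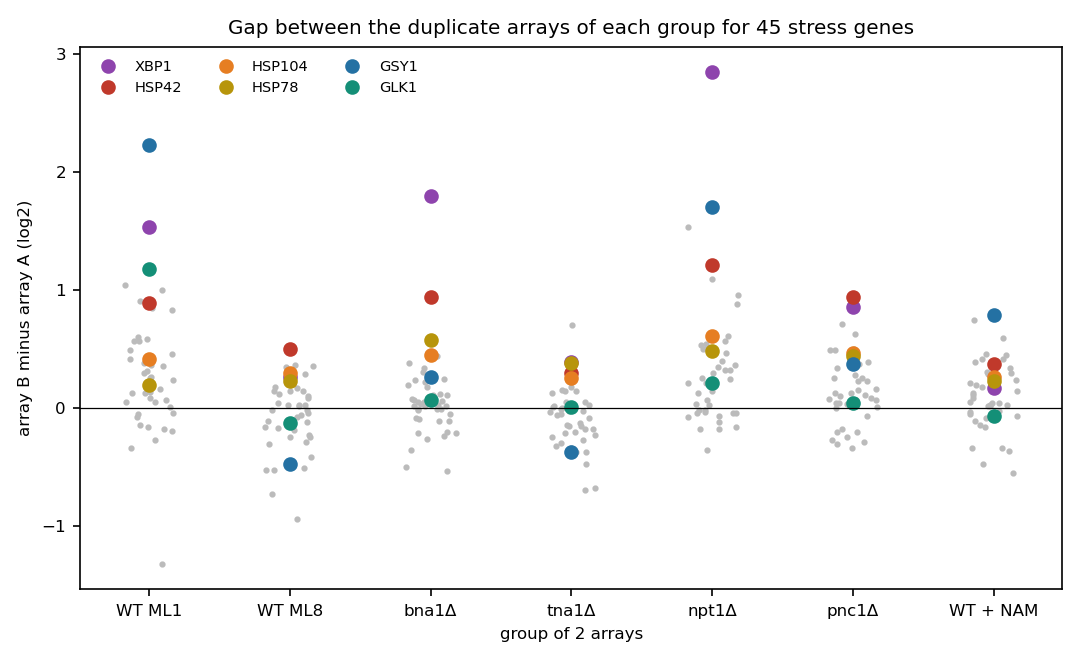
Array B minus array A (log2) for the 45 genes in each group of 2 arrays, with 6 genes in colour and the rest in grey. HSP42, HSP78, HSP104 and XBP1 lie above 0 in all 7 groups, and the spread is widest in ML1 and npt1Δ.

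Further genes of the same pathways were set beside the 45, from lists drawn up by role with earlier results of these data known. Their counts stand against the shares of all probe sets called, which were 0.818% higher and 1.42% lower in pnc1Δ, 8.88% and 7.02% with NAM, 3.56% and 0.637% in npt1Δ, and 0.0182% in either direction in bna1Δ and in tna1Δ. Of 31 regulators of the stress response 30 were measured. MSN2 differed by -0.05 ± 0.10 in pnc1Δ, -0.16 ± 0.10 with NAM and -0.03 ± 0.10 in npt1Δ. MSN4 differed by -0.65 ± 0.26, 0.76 ± 0.26 and 0.10 ± 0.26 in the same order, and HSF1 by -0.09 ± 0.09, -0.06 ± 0.09 and -0.24 ± 0.09. None of these 9 values was called. WHI2, for an activator of the general stress response, fell in pnc1Δ (-0.40 ± 0.06, adjusted p = 0.00611) and with NAM (-0.22 ± 0.06), and these comparisons share the wild-type arrays. PDE1, for the low-affinity cyclic AMP phosphodiesterase, fell with NAM (-1.48 ± 0.17, adjusted p = 0.000134). In npt1Δ 0 of the 30 were called, and the 2 with the highest signal, the 14-3-3 genes BMH1 and BMH2, differed by 0.02 ± 0.07 and 0.02 ± 0.07. PNC1 differed by -0.49 ± 0.16 with NAM and by 0.22 ± 0.16 in npt1Δ, neither called.

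Among 39 other genes raised in the environmental stress response, 0 rose and 5 fell in pnc1Δ (12.8%, where 1.42% of all probe sets fell, median -0.27), led by the vacuolar mannosidase gene AMS1 (-1.16 ± 0.25), the glutathione transferase gene ECM4 (-0.64 ± 0.09), the eisosome gene LSP1 (-0.60 ± 0.07) and the mitochondrial reductase gene MCR1 (-0.49 ± 0.10). With NAM 9 rose and 0 fell (23.1%, where 8.88% of all probe sets rose, median 0.19), led by the transaldolase gene NQM1 (2.16 ± 0.12), the phosphoglycerate mutase homologue GPM2 (2.10 ± 0.29), the yapsin gene YPS6 (1.23 ± 0.11) and AMS1 (1.17 ± 0.25). In npt1Δ 5 rose and 0 fell (12.8%, where 3.56% of all probe sets rose, median 0.28), led by GPM2 (3.07 ± 0.29), NQM1 (1.56 ± 0.12), the glycerol 3-phosphate dehydrogenase gene GPD1 (1.10 ± 0.23) and the glyoxalase gene HSP31 (0.76 ± 0.11). The 3 comparisons share the wild-type arrays. The 31 ribosome biogenesis genes, which the environmental stress response lowers, gave 0 calls in all 5 comparisons, where with NAM 8.88% of all probe sets rose and 7.02% fell, and had medians of 0.08 in pnc1Δ, 0.04 with NAM and -0.13 in npt1Δ. NOP1 and RPA135, those with the highest signal, differed by 0.08 ± 0.05 and 0.06 ± 0.06 in pnc1Δ, by -0.03 ± 0.05 and 0.08 ± 0.06 with NAM and by -0.03 ± 0.05 and -0.11 ± 0.06 in npt1Δ.

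Of 15 other trehalose and glycogen genes, TPS3, for the second regulatory subunit of trehalose synthase, fell in pnc1Δ (-0.46 ± 0.07, adjusted p = 0.00684). NTH2, for the second neutral trehalase, rose in npt1Δ (0.73 ± 0.17) and with NAM (0.81 ± 0.17). With NAM the sporulation glucoamylase gene SGA1 rose too (1.05 ± 0.17), while the glycogenin gene GLG2 (-0.63 ± 0.17) and PIG2 (-0.54 ± 0.11) fell. In the list of 23 other oxidant defence genes 6 rose with NAM (26.1%, where 8.88% of all probe sets rose), led by the peroxiredoxin gene TSA2 (1.25 ± 0.12), the glutathione transferase gene GTT2 (0.84 ± 0.18), GSH1, for the first enzyme of glutathione synthesis (0.65 ± 0.07), and the peroxidase gene GPX2 (0.65 ± 0.16). TSA2 rose in npt1Δ (0.50 ± 0.12), and the thiol peroxidase gene DOT5 fell in pnc1Δ (-0.25 ± 0.05). The 19 other chaperone genes gave 0 calls in all 5 comparisons. Of the 2 with the highest signal, the Hsp70 gene SSA2 differed by 0.02 ± 0.04 in pnc1Δ, 0.05 ± 0.04 with NAM and -0.04 ± 0.04 in npt1Δ, and SSB1, whose probe set is shared with a near-identical gene, by 0.00 ± 0.04, -0.02 ± 0.04 and 0.00 ± 0.04. In bna1Δ and tna1Δ all 6 of these lists gave 0 calls.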

How the data were processed

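Total RNA of 14 cultures was labelled with biotin and hybridised to 14 arrays. The authors deposited log2 signals made with GCRMA, which corrects background, normalizes and summarises probes, per the submitters' processing notes. Its version is not given here in the sources used. Values were used as deposited.

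Of 10928 probe sets, 5498 matched 1 gene of the reference gene table by gene identifier, used for names only. The 95th percentile of 1746 probe sets whose gene is not in that table gave each array's background limit. Differences were fitted with limma 3.58.1 (lmFit, eBayes) in R 4.3.3 on all 14 arrays, with the 4 wild-type arrays as 1 group because the labels do not tie a pair to a condition, which left 8 residual degrees of freedom. P-values were adjusted over the 5498 probe sets by Benjamini-Hochberg and called under 0.05, with no minimum fold. ML1 and ML8 were compared in a fit of 7 groups. The procedure was tested on simulated data. The number of arrays limits the precision.

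The members, the lists of other pathway genes and the tests were chosen with earlier results of these data known. Named genes are members called against wild type or outside the wild-type range by at least 1. They also include, for each role, the member with the largest difference, up to 4 called genes of another list or the 2 with the highest signal, MSN2, MSN4, HSF1 and PNC1. The remaining members and single arrays were named after their values were seen. Alternatives were 1 wild-type pair as control or both kept apart, a block for the replicate letter, a fit without the groups not compared, quantile normalization, median centring, a filter on dim probe sets and leaving out each array. Shares of all probe sets belong to the main fit and are not given for the alternatives.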

Additional observations from a re-analysis of the deposited data

Results flagged for a closer look

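Each of the 45 genes was checked for a wild-type array that stood apart from the other 3 by Dixon's criterion, under which chance picks about 1 in 20 groups, or about 2.2 of 45. There were 3. HXK1 was at 9.62 on array ML1 B against 8.99 to 9.05 on the others. MSC1 was at 7.51 on array ML8 A against 7.84 to 7.89. MOH1 was at 3.02 on array ML8 A against 2.49 to 2.56.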

How the results depend on the processing

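Of 22 calls of single genes against wild type, 7 held in all 22 alternatives (DDR48, GND2, GTT1, HSP12 and YRO2 with NAM, GTT1 in npt1Δ and YGP1 in pnc1Δ), 15 were lost in at least 1 and 0 reversed. None of the 58 calls over all comparisons reversed. The labels do not say that the replicate letter pairs cultures. Differences between B and A correlated at -0.23 to 0.59 between groups (median 0.39), and 17 of 21 pairs of groups were over 0.1, the other 4 all involving ML1, so the letter was not taken as a pairing, though many groups deviated together. With the letter as a replicate block, 13 genes were called in pnc1Δ (8 without it), with GTT1, HSP104, HSP42, NTH1 and XBP1 added. In npt1Δ 5 were called (3 without it), with HOR7 and HSP26 added. Shares of all probe sets are not given for the alternatives in this paragraph. Whether probe sets at large gained or lost calls in the same way was not tested. With only the groups compared in the fit, which leaves fewer arrays, 4 were called in pnc1Δ, 6 with NAM, 1 in npt1Δ and 8 between npt1Δ and pnc1Δ (14 with all arrays). With ML1 as the only control 7 were called with NAM (11 with both pairs). Quantile normalization and median centring each gave 5 in npt1Δ, and the cause of these shifts was not tested. Leaving out each array in turn gave 1 to 12 calls in pnc1Δ, 6 to 12 with NAM, 1 to 5 in npt1Δ, 6 to 20 for NAM against pnc1Δ, 5 to 18 for npt1Δ against pnc1Δ, 5 to 8 for NAM against npt1Δ and 0 to 6 for ML1 against ML8, and 0 throughout for bna1Δ and tna1Δ, against wild type or each other. A lone remaining array was assumed to vary like the other groups. Every member has 1 probe set, so the alternative of another probe set was not run. Groups of 2 arrays limit the precision. Signal near the background limit touches RTN2, MOH1, in pnc1Δ SOL4 and, on pnc1Δ array A, XBP1.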
